A study of Homo sapiens with 12 samples.

Results

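The comparison of mitoxantrone liposome alone with DMSO used 6 of the 12 RNA-seq libraries of the series, chosen by their sample labels. MV4-11, a human acute myeloid leukemia (AML) cell line whose FLT3 gene carries an internal tandem duplication (FLT3-ITD), was exposed for 24 h to 20 nM mitoxantrone (Mito-Lipo, 3 libraries) or to DMSO (3 libraries). The sample labels name the drug mitoxantrone, whereas the paper describes it as the liposomal form. The other 6 libraries were 3 of gilteritinib at 25 nM, a FLT3 inhibitor, and 3 of the combination of mitoxantrone at 20 nM with gilteritinib at 20 nM (Com), which entered the filter on low values, the estimate of the spread, the principal component and the values given beside some results. All values come from a single cell line at a single dose and time, and the sources do not say whether the replicates were separate cultures, so p-values measure the spread between these libraries.

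Mitoxantrone intercalates into DNA and traps topoisomerase II on broken DNA ends, and cells answer such breaks through the ATM, ATR and p53 pathways. Active p53 raises CDKN1A, whose product p21 inhibits cyclin-dependent kinases, which in turn lets RB family proteins hold back the E2F factors that drive replication genes and, with the DREAM complex, the genes of mitosis. The genes of these steps are described in that order, followed by those of lipid synthesis, glucose use, immediate early response and the myeloid surface.

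Values are FPKM, fragments per kilobase of exon scaled to the mapped total of each library, and differences are log2(FPKM + 1) of Mito-Lipo minus DMSO with their standard error. Tested were the 18574 genes whose FPKM reached 1 in 3 or more of the 12 libraries, and 10506 of them were protein-coding. Depth, recovered from the steps that single fragments make in the FPKM, was 40331000, 31725000 and 39967000 fragments in Mito-Lipo replicates 1, 2 and 3 and 36042000, 36157000 and 32974000 in the DMSO replicates. All 8 markers of myeloid leukemia cells were present, with MPO lowest at 1.55 to 2.66 in the 12 libraries, while the markers of T cells, megakaryocytes, epithelial cells, fibroblasts and endothelial cells stayed below 1, and of the erythroid markers HBB reached 2.85.

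The replicate 1 libraries stood apart from the others in every condition. The first principal component of the 12 libraries held 41.9% of the variance, with the 4 replicate 1 libraries at 28.1 to 36.4 and the other 8 between -26.9 and -4.01. Over protein-coding genes, the squared difference between replicates 2 and 3 of a condition had a median of 1.55 to 4.24 times the counting variance, against 13.6 to 23.2 times between replicate 1 and either of them and 0.455 for counting alone. Same-numbered libraries also deviated together, although libraries of different numbers were not compared for this. Differences are given within each replicate pair (Mito-Lipo 1 minus DMSO 1, and so on) as well as between means.

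No gene passed an adjusted p under 0.05 from limma with 1 mean per condition (0% of 18574 genes), and the smallest adjusted p was 0.177. At an unadjusted p under 0.05, 1467 genes differed (7.9%), with 920 higher (4.95%) and 547 lower (2.94%) in Mito-Lipo. When the replicate block was added, which fits each replicate number its own level, 2954 genes had an unadjusted p under 0.05 (15.9%), with 1755 higher (9.45%) and 1199 lower (6.46%), and the smallest adjusted p was 0.066. Among protein-coding genes only, the same replicate block gave 206 genes higher (1.96%) and 73 lower (0.695%) at an adjusted p under 0.05. Replicates 2 and 3 alone, a restriction known from earlier results of these data, gave 573 genes higher (3.08%) and 617 lower (3.32%) at that threshold, of which 441 and 324 had the same sign in pair 1. The 3 Mito-Lipo libraries lay all above the 3 DMSO libraries in 1426 genes (7.68%) and all below them in 1096 (5.9%).

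Below, a gene is said to rise or fall only where the blocked fit of protein-coding genes or the fit of replicates 2 and 3 gave an adjusted p under 0.05, and the fit is named. Both are alternative fits, no correction was made for using both, and the fit with 1 mean per condition gave 0 genes. The fit of replicates 2 and 3 leaves out pair 1, where the sign can differ. Counts of list members use the unadjusted p under 0.05 with 1 mean per condition and are read against the 4.95% higher and 2.94% lower of all genes tested. Where the replicate block moves such a count by over 1.5 times, the blocked count follows, against its 9.45% and 6.46%. Medians without 1 library keep its same-numbered partner and use no block, so the distance of replicate 1 from the other replicates enters them.

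**Figure D1:**
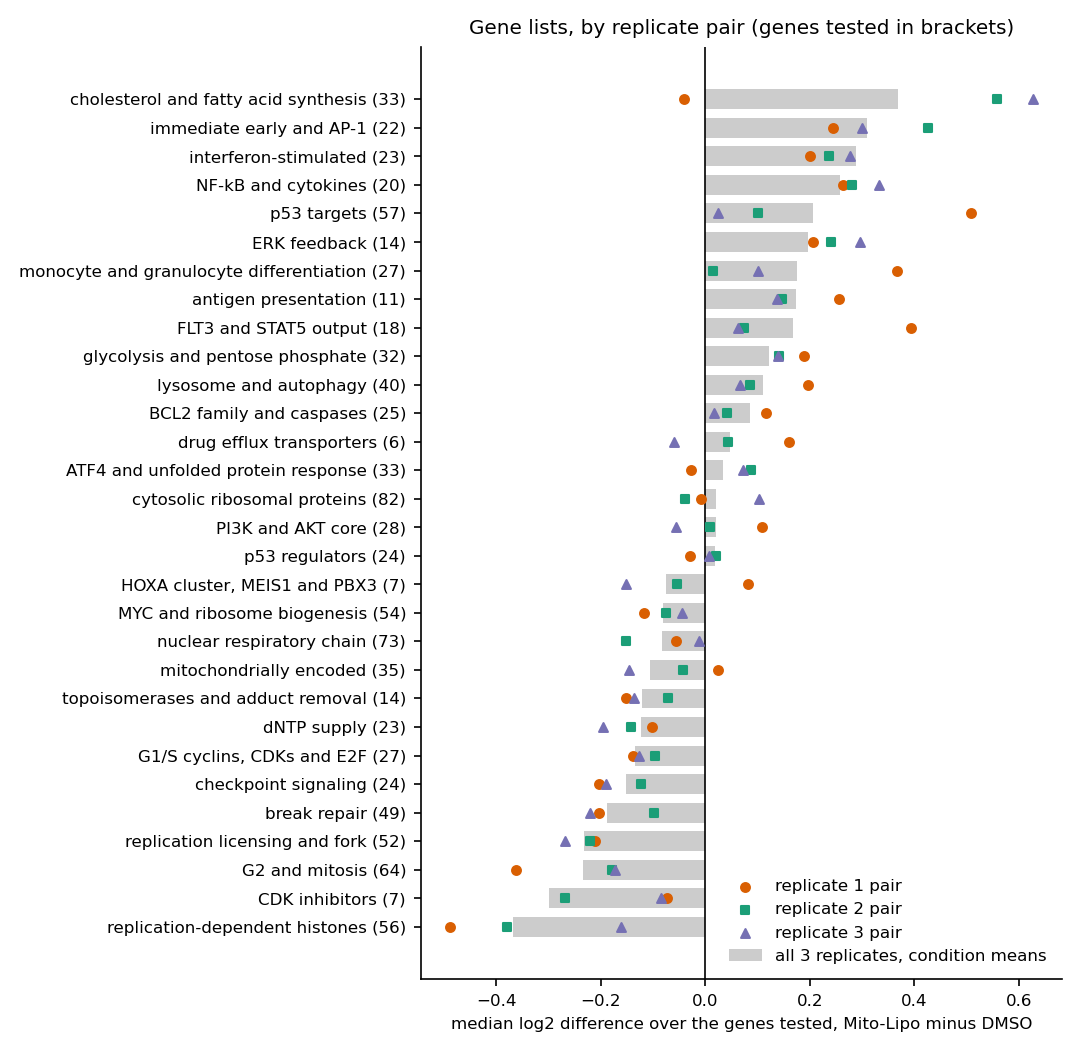
Median log2 difference, Mito-Lipo minus DMSO, over the tested genes of 30 lists (number of genes in brackets). Grey bars use the 3 libraries of each condition, and points are the medians within replicate pairs 1 (circle), 2 (square) and 3 (triangle). Replication, mitosis and histone lists lie below 0 in all 3 pairs, the p53 target list is highest in pair 1 (0.51), and the cholesterol and fatty acid list is near 0 in pair 1 (-0.04) and highest in pairs 2 and 3 (0.56 and 0.63).

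The plot of list medians by pair shows 3 patterns that the rest of the text follows. Cell cycle lists were lower in each pair, the p53 target median was highest in pair 1, and the lipid synthesis median was above 0 in pairs 2 and 3 but not in pair 1. The median over all genes tested was 0.03, and it was 0.04, 0.06 and -0.03 within pairs 1, 2 and 3.

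The target of the drug was itself lower in the treated libraries. TOP2A (chromosome 17, 40388516 to 40417950), the topoisomerase II of dividing cells, had FPKM of 109, 119 and 125 in Mito-Lipo replicates 1, 2 and 3 and of 161, 139 and 144 in DMSO. Every Mito-Lipo value lay below every DMSO value, a difference of -0.33 (SE 0.11) between the means, with -0.56, -0.22 and -0.20 within pairs. TOP2A fell in replicates 2 and 3 (adjusted p = 0.0307 from limma) and had an adjusted p of 0.0989 from limma in the blocked fit of protein-coding genes. TOP2B, the isoform that non-dividing cells also carry, had FPKM of 94.5, 95.2 and 101 in Mito-Lipo and 120, 101 and 102 in DMSO, a difference of -0.14 (SE 0.11) that lay mostly in pair 1 (-0.34, -0.08 and -0.01). Among the other enzymes of the list of topoisomerases and adduct removal (14 genes, median -0.12, 0 higher and 3 lower by the count rule, 6 lower with the block, median -0.069 without DMSO replicate 1), RBBP8, which starts the resection of broken ends, fell in the blocked fit (-0.29, SE 0.10 without the block, adjusted p = 0.0429 from limma with it). TDP1, which removes protein adducts from DNA ends, was lower by 0.20 on the log2 scale, with FPKM of 19.7, 19.7 and 20.1 in Mito-Lipo against 24, 22.3 and 22.6 in DMSO.

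p21 was the cell cycle inhibitor that rose. CDKN1A (chromosome 6, 36676460 to 36687339) had FPKM of 113, 45.4 and 45.1 in Mito-Lipo and of 48.4, 19.3 and 19.1 in DMSO. The lowest Mito-Lipo libraries lay below DMSO replicate 1, so the groups overlapped, yet the pairs gave nearly one value (1.21, 1.19 and 1.20). Between means the difference was 1.20 (SE 0.49, adjusted p = 0.582 from limma), with the replicate block the SE was 0.28 and the adjusted p over protein-coding genes 0.0386, and in replicates 2 and 3 alone the adjusted p was 0.000159. Mito-Lipo thus had a mean of 67.9 ± 39.2 (SD, n = 3) against 28.9 ± 16.9 in DMSO, with the spread of both groups set by replicate 1.

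Most other p53 targets followed p21 in pair 1 but only in part in pairs 2 and 3. Of 57 targets tested, 51 were higher between means (median 0.21), with 7 higher and 0 lower by the count rule (16 and 1 with the block). In the blocked fit of protein-coding genes 7 rose, against 1.96% of all in that fit. The pair medians were 0.51, 0.10 and 0.02. In pair 1, 29 of the 57 were higher by at least 0.5, and 3 were in both pair 2 and pair 3, namely BTG2, CDKN1A and SERTAD1. Such steps of 0.5 were not counted over all genes, here or below. Without Mito-Lipo replicate 1 the median of the list was 0.0079. In replicates 2 and 3, 9 targets rose while 4 fell, against 3.08% and 3.32% of all genes.

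BTG2 (chromosome 1, 203305491 to 203309602), an antiproliferative p53 target that is also an immediate early gene, changed most in the list. Its FPKM was 25.2, 42.9 and 43.2 in Mito-Lipo and 9.02, 13.1 and 13.5 in DMSO, with no overlap and a 3.13-fold difference of the means. The log2 difference was 1.54 (SE 0.23), and BTG2 rose in the blocked fit of protein-coding genes (adjusted p = 0.0147 from limma). PLK3, a stress-responsive polo kinase, had FPKM of 5.43, 5.78 and 5.2 in Mito-Lipo against 2.83, 2.84 and 3.44 in DMSO and rose in the blocked fit (0.68, SE 0.12, adjusted p = 0.016 from limma). SERTAD1, a cofactor of E2F and CDK4, had 4.96, 5.67 and 6.34 against 3.17, 3.4 and 2.81 and rose likewise (adjusted p = 0.0422 from limma).

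The targets that carried the pair 1 median looked different in the single libraries, and those given here were chosen after their values were seen. MDM2, the ubiquitin ligase that limits p53, had FPKM of 82.8, 27.2 and 26.8 in Mito-Lipo and of 32.3, 20.6 and 21.1 in DMSO. The pair differences were 1.33, 0.38 and 0.33, and MDM2 rose in replicates 2 and 3 (adjusted p = 0.00875 from limma). FDXR, a mitochondrial reductase, had 26.8, 9.12 and 7.68 against 9.24, 7.45 and 7.91, with pair differences of 1.44, 0.26 and -0.04. TNFRSF10B, the death receptor DR5, had 51.7, 38.2 and 35.6 against 27.9, 27 and 25.9 and rose in the blocked fit (0.60, SE 0.17 without the block, adjusted p = 0.0302 from limma with it).

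**Figure D2:**
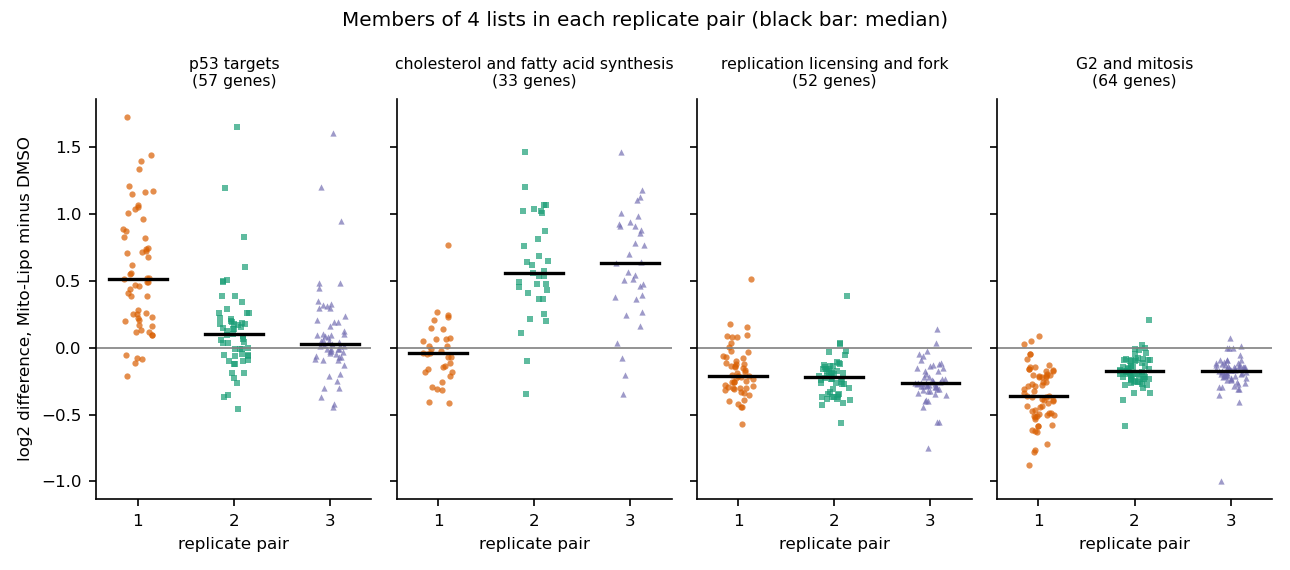
Log2 difference (FPKM + 1), Mito-Lipo minus DMSO, of every tested member of 4 lists within replicate pairs 1, 2 and 3, with the median of the members as a black bar. The p53 targets have medians of 0.51, 0.10 and 0.02, the cholesterol and fatty acid genes of -0.04, 0.56 and 0.63, the replication genes of -0.21, -0.22 and -0.27, and the G2 and mitosis genes of -0.36, -0.18 and -0.17.

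Genes that license origins and build the replication fork were lower in Mito-Lipo almost throughout. Of 52 tested, 51 were lower (POLD4 was the exception, at 0.25), and the median was -0.23. In all 3 pairs 40 of the 52 were lower, against 2745 of all 18574 genes tested. By the count rule 20 of 52 were lower and 0 higher, against 2.94% of all genes, and with the block 39 were lower. In the blocked fit of protein-coding genes 10 fell, against 0.695% of all in that fit. In replicates 2 and 3 alone 28 fell, against 3.32% of all. The 3 Mito-Lipo libraries lay all below the 3 DMSO libraries in 24 of the 52, against 5.9% of all genes tested.

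E2F factors bind many promoters of this group, and the letters of their sites were therefore counted. RefSeq promoter sequences (GRCh38.p14) were found for 44 of the 52. Within 250 bases before the start, 13 of the 44 (29.5%) held one of TTTCCCGC, TTTGGCGC, TTTGCCGC and TTTCGCGC on either strand, against 405 of 8622 protein-coding genes tested (4.7%). Of the members that held one, 3 with a small p are printed 5′ to 3′ over 100 bases with the matches in capitals, so that the letters behind the count can be read. RFC3 lies on the plus strand (chr13:33818048-33818147, 101 to 2 bases before the start), MCM6 on the minus strand (chr2:135876542-135876641, 198 to 99 bases before the start) and POLA1 on the plus strand (chrX:24693735-24693834, 183 to 84 bases before the start).
RFC3: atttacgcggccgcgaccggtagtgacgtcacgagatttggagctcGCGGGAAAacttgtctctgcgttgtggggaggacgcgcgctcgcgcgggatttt
MCM6: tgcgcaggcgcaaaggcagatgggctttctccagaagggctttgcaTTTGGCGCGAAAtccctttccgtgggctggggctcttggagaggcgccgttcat
POLA1: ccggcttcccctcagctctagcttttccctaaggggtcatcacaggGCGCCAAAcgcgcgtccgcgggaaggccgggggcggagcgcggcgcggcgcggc
The MCM6 stretch holds 2 matches that overlap, and the 250 bases of MCM6 hold 4. A match is a run of letters and no measurement of binding.

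RFC3, a subunit of the loader of the PCNA clamp, had FPKM of 35.5, 33.2 and 35.9 in Mito-Lipo and of 48.6, 43.8 and 42.9 in DMSO. It fell in the blocked fit of protein-coding genes (-0.36, SE 0.08 without the block, adjusted p = 0.0304 from limma with it). WDHD1, which links the helicase to polymerase alpha, had 12.3, 13.1 and 12.5 against 16.8, 15.1 and 15.9 and fell likewise (adjusted p = 0.0308 from limma). PRIM2, a primase subunit, had 18.2, 18.1 and 18.4 against 21.9, 23 and 21.2 and fell by 0.26 on the log2 scale (adjusted p = 0.0336 from limma), although its Mito-Lipo values differed by less than counting error alone would give. In all 3 genes the treated libraries lay below every DMSO library. POLA1, the catalytic subunit of polymerase alpha shown above for its promoter, had FPKM of 26.1, 30 and 28.9 against 34.8, 33.3 and 34.9 and fell in the blocked fit (adjusted p = 0.047 from limma).

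The MCM helicase, which is loaded at origins, was lower as a whole. MCM6 had FPKM of 84.8, 95.3 and 99.1 in Mito-Lipo and of 116, 122 and 120 in DMSO and fell in the blocked fit (-0.36, SE 0.09 without the block, adjusted p = 0.0257 from limma with it). MCM4 had 153, 165 and 169 against 186, 217 and 216 and fell too (adjusted p = 0.0287 from limma). MCM2, MCM3, MCM5 and MCM7, named after their values were seen, differed by -0.28, -0.28, -0.19 and -0.26, and of these MCM7 fell in the blocked fit (adjusted p = 0.0421 from limma). PCNA itself, the clamp, was among the least changed, at -0.15 (SE 0.09) with pair differences of 0.08, -0.31 and -0.22.

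Nucleotide supply moved the same way in its large subunit. Of 23 dNTP supply genes, 0 were higher and 3 lower by the count rule (0 and 7 with the block), with a median of -0.12 that became -0.075 without DMSO replicate 3. RRM1, the large subunit of ribonucleotide reductase, had FPKM of 62.2, 64.6 and 70.2 in Mito-Lipo and of 83.3, 82.2 and 81.9 in DMSO and fell in the blocked fit (-0.33, SE 0.07 without the block, adjusted p = 0.0394 from limma with it). DUT, the dUTPase that keeps uracil out of DNA, had 52.3, 35.6 and 36.6 against 69.1, 71.4 and 67.2, with pair differences of -0.40, -0.98 and -0.86, and fell in replicates 2 and 3 (adjusted p = 0.00662 from limma). Gilteritinib alone had 88, 40.6 and 43.4 for DUT, and Com had 65.6, 56.4 and 70.5. RRM2, chosen after its values were seen, differed by -0.16 (SE 0.22) between means and fell in replicates 2 and 3 (adjusted p = 0.0389 from limma).

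Replication-dependent histone genes, whose RNA is made in S phase, had the lowest list median, -0.37. Of 56 tested, 55 were lower, with 0 higher and 22 lower by the count rule (0 and 35 with the block). In 29 the groups had no overlap, against 5.9% of all genes tested. The pair medians were -0.49, -0.38 and -0.16. Without Mito-Lipo replicate 1 the median was -0.24. H2BC10 had FPKM of 257, 238 and 269 in Mito-Lipo and of 372, 349 and 326 in DMSO and fell in the blocked fit (-0.45, SE 0.10 without the block, adjusted p = 0.0401 from limma with it). H2AC16 had 121, 146 and 108 against 203, 202 and 218 and fell by 0.74 on the log2 scale (adjusted p = 0.0341 from limma). H2AC6 fell as well, from a mean of 91.1 ± 4.46 (SD, n = 3) in DMSO to 70.2 ± 5.43. These genes are near-identical copies that lie in clusters, and the sources do not say how reads that match several of them were counted, so the value of any single copy is uncertain.

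The G1 and S phase regulators moved less than the replication genes. Of 27 cyclins, CDKs and E2F and RB family genes, 22 were lower (median -0.13), with 1 higher and 5 lower by the count rule and 2 and 9 with the block. CCNA2, the cyclin A of somatic cells, had FPKM of 53.1, 52.1 and 55.7 in Mito-Lipo and of 74.3, 67.7 and 68 in DMSO, a 23.4% lower mean with no overlap. Its log2 difference was -0.38 (SE 0.11), with an adjusted p of 0.077 from limma in the blocked fit of protein-coding genes and 0.0201 in replicates 2 and 3, where it fell. CCNA1, the second cyclin A gene, went the other way, with 24.4, 30.5 and 33 against 23.2, 19.1 and 20 and pair differences of 0.07, 0.64 and 0.70, and it rose in replicates 2 and 3 (adjusted p = 0.00191 from limma). CDK2, the kinase partner of both, had 15.6, 18.7 and 18.9 against 17.3, 22.5 and 22.6, lower in each pair (-0.14, -0.26 and -0.25), and fell in replicates 2 and 3 (adjusted p = 0.0122 from limma).

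Of the 7 CDK inhibitor genes tested, CDKN1A was the one that was higher, and 2 were lower by the count rule (4 with the block). The median of -0.30 became -0.063 without Mito-Lipo replicate 1. CDKN2C, which encodes p18, had FPKM of 14.1, 13.1 and 13.6 in Mito-Lipo and of 15.3, 21.3 and 23.8 in DMSO, and fell in replicates 2 and 3 (adjusted p = 0.00301 from limma). CDKN2A, the locus of p16 and ARF, had 40.6, 23.2 and 21 against 38.3, 39.6 and 39.9, with pair differences of 0.08, -0.74 and -0.90, and fell in replicates 2 and 3 (adjusted p = 0.000904 from limma). Gilteritinib alone had similar CDKN2A values (38.5, 23.8 and 23.3), and Com had 41.9, 30.2 and 29.7. For CDKN2C, gilteritinib alone had 20.4, 14.8 and 14.7 and Com had 15.5, 19 and 20.4. CDKN3, a phosphatase of CDKs that is itself high in mitosis, had 34.2, 37.6 and 42.2 against 50.3, 45.5 and 44.9, with a difference of -0.30 (SE 0.11).

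All 64 G2 and mitosis genes tested were lower in Mito-Lipo, by a median of -0.23. The count rule gave 0 higher and 26 lower (0 and 41 with the block), and 46 of 64 had no overlap between the groups, against 5.9% of all genes. The decline was larger in pair 1 (-0.36) than in pairs 2 and 3 (-0.18 and -0.17). In all 3 pairs 57 of 64 were lower, against 2745 of all 18574 genes tested. In bulk RNA, fewer cells in G2 and mitosis and less RNA per cell cannot be told apart. In the blocked fit of protein-coding genes 0 of the 64 passed the adjusted threshold, and 15 fell in replicates 2 and 3, against 3.32% of all. NCAPG, a condensin subunit, had FPKM of 25.5, 28.8 and 29.1 in Mito-Lipo and of 39.8, 34.3 and 34.7 in DMSO and fell in replicates 2 and 3 (adjusted p = 0.0109 from limma). SMC2, the condensin ATPase, had 24.9, 25.5 and 28.8 against 37.9, 32.6 and 32.5 (adjusted p = 0.0603 from limma in replicates 2 and 3). PLK4, which starts centriole duplication, had 16.9, 17.1 and 18.7 against 24.2, 21 and 20.8.

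The CHR element, TTTGAA, marks many promoters of mitotic genes. It stood within 250 bases before the start, on either strand, in 27 of 56 promoters of this list (48.2%), against 748 of 8622 protein-coding genes tested (8.68%) and 0 of 44 promoters of the replication list. CCAAT, a separate motif often found beside it, was in 38 of the 56 (67.9%), against 35.8% of all, and it was also in 69.2% of the promoters of the cholesterol and fatty acid list. The 3 members with the smallest p that held TTTGAA are printed as before, with NCAPG at chr4:17810879-17810978 (plus strand, 100 to 1 bases before the start), KIF11 at chr10:92593030-92593129 (plus strand, 100 to 1 bases before the start) and ECT2 at chr3:172750565-172750664 (plus strand, 161 to 62 bases before the start).
NCAPG: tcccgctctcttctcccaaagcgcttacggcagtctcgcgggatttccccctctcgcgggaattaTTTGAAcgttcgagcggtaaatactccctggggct
KIF11: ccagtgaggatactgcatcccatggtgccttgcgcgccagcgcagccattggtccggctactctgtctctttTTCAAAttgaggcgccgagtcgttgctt
ECT2: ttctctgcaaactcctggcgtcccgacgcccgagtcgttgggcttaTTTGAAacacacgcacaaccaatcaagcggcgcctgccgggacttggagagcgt
In KIF11 the match is on the other strand and reads TTCAAA here. KIF11, the motor that separates the spindle poles, had FPKM of 26.3, 28.8 and 29.2 in Mito-Lipo and of 34.3, 35 and 36.5 in DMSO and fell in replicates 2 and 3 (adjusted p = 0.00988 from limma). ECT2, which starts cytokinesis, had 16.8, 16.6 and 17.7 against 23.1, 20 and 19.8 (adjusted p = 0.0814 from limma in replicates 2 and 3). POLA1, KIF11 and ECT2 were chosen for their promoters and p after the values were seen.

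The plot of motif shares places both shares beside the other lists. The lists were written from general knowledge, so these shares describe the lists and do not measure an effect of the drug. The histone promoters held E2F letters in 19.6% and CHR letters in 31.4% of 51, and the p53 target promoters held them in 13.3% and 4.44% of 45. Among the other motifs searched, TGACGTCA, a site for CREB, was in 15.7% of the histone promoters against 2.98% of all. CCAAT was in 82.4% of the histone promoters against 35.8% of all. TCACNCCAC, a site for SREBP, was in 1 of 26 promoters of the cholesterol and fatty acid list (3.85%) against 0.847% of all. TGACTCA or TGAGTCA, sites for AP-1, were in 0 of 17 promoters of the immediate early list against 2.31% of all, and TGACGTCA was in 2 of the 17 (11.8%).

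Genes that signal and repair DNA breaks were lower as well. In the break repair list, 42 of 49 genes were lower (median -0.19), with 0 higher and 13 lower by the count rule (0 and 25 with the block). The groups had no overlap in 17, against 5.9% of all genes tested. BRCA1 had FPKM of 22.1, 24.3 and 23.6 in Mito-Lipo and of 29.6, 29 and 30.1 in DMSO and fell in the blocked fit of protein-coding genes (-0.33, SE 0.07 without the block, adjusted p = 0.0304 from limma with it). BARD1, its partner, had 14.6, 15.6 and 16.2 against 20.4, 19.4 and 18.9 and fell too (adjusted p = 0.0487 from limma). FANCI, of the interstrand crosslink pathway, had 33.4, 38.2 and 36.1 against 44.6, 42.8 and 44 (adjusted p = 0.0419 from limma in the blocked fit). MMS22L, which rescues stalled forks, had 17.5, 16.2 and 16.3 against 22.1, 20.3 and 20.1 and fell in the blocked fit (adjusted p = 0.0294 from limma).

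In the checkpoint list, 20 of 24 genes were lower (median -0.15), 0 higher and 8 lower by the count rule. CHEK1, the kinase that ATR activates, had FPKM of 21.7, 22.8 and 22.8 in Mito-Lipo and of 28.2, 28.1 and 28 in DMSO, a 20.1% lower mean, and fell in the blocked fit (adjusted p = 0.0381 from limma). CHEK1 overlaps STT3A on the same strand, and its DMSO libraries differed by less than counting error. TOPBP1, which activates ATR, had 36.8, 35.7 and 35.8 against 47.6, 42.5 and 43.5 and fell likewise (adjusted p = 0.0359 from limma). H2AX, the histone variant that ATM phosphorylates at breaks, had 94.3, 39.2 and 35.2 against 111, 127 and 132, and its pair differences of -0.23, -1.67 and -1.88 made it the largest change of the list. H2AX fell in replicates 2 and 3 (adjusted p = 0.00136 from limma). The SD of its Mito-Lipo libraries, 33, came from replicate 1. H2AX was also lower in replicates 2 and 3 of gilteritinib alone (141, 47.3 and 58.7) but not of Com (94.9, 104 and 124).

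**Figure D3:**
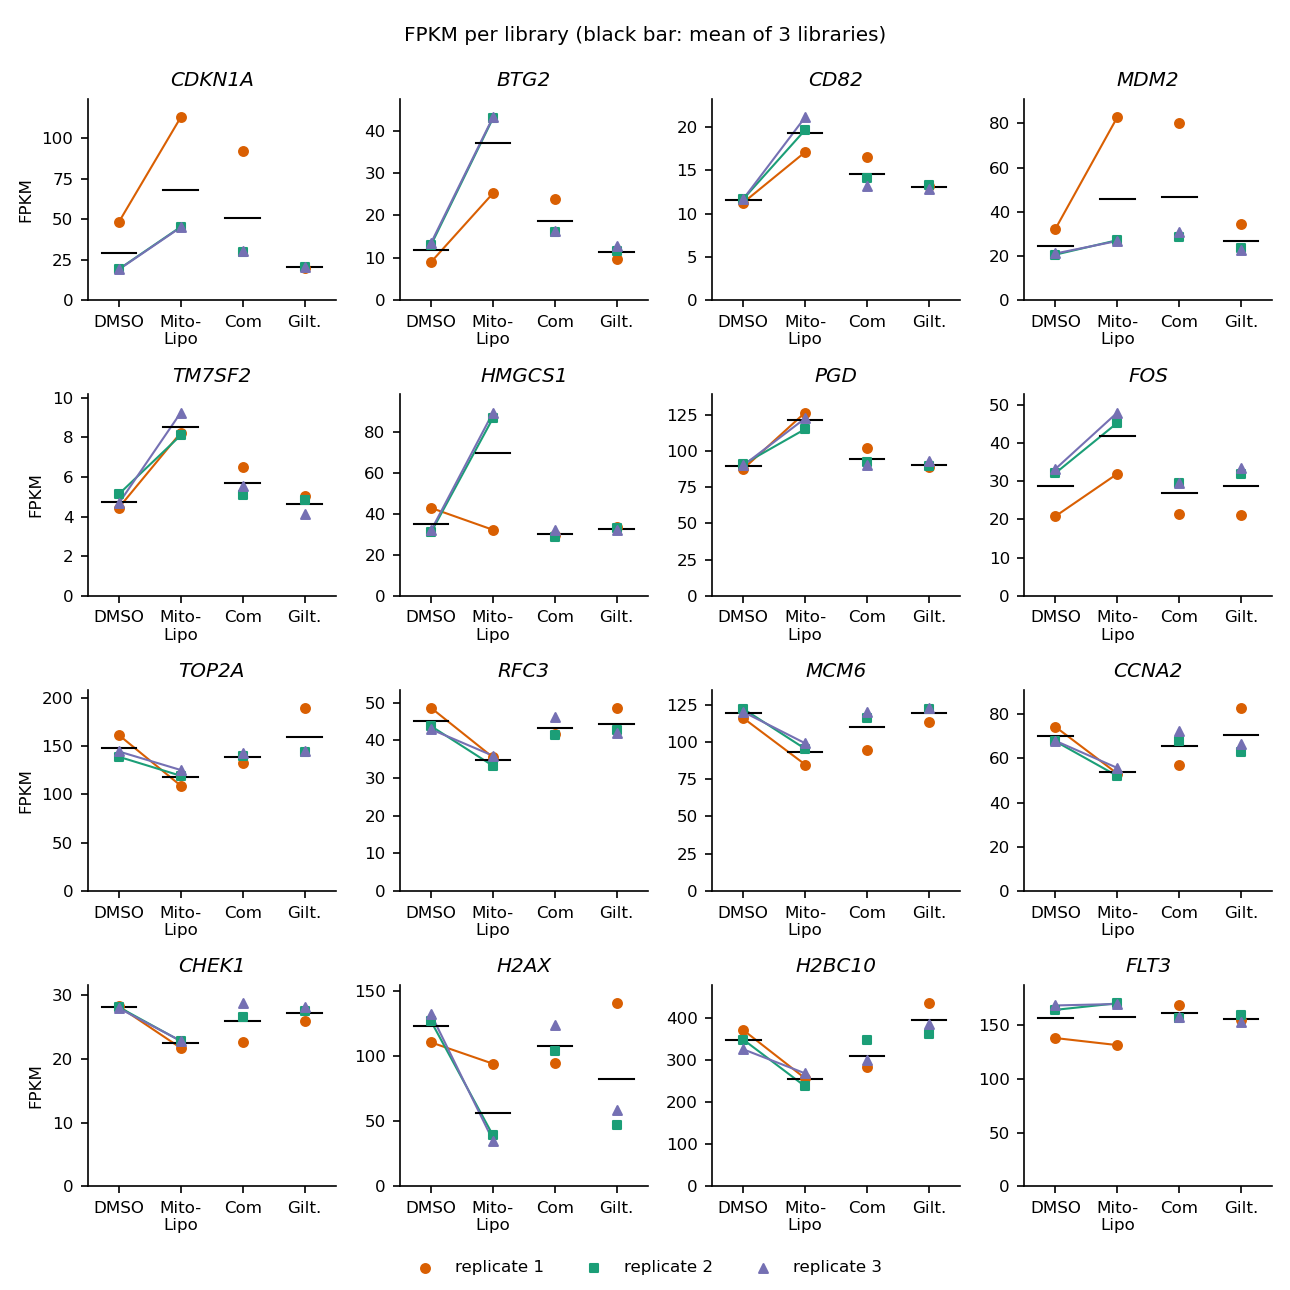
FPKM of 16 genes in each library of DMSO, Mito-Lipo, the combination (Com) and gilteritinib (Gilt.), from 0 on a linear axis, with replicate 1 as circles, 2 as squares and 3 as triangles. Black bars are means of 3 libraries and coloured lines join DMSO and Mito-Lipo of the same replicate number. CDKN1A is higher in every pair from different starting levels, HMGCS1 is raised in replicates 2 and 3 and not in replicate 1, and TOP2A, RFC3, MCM6, CCNA2 and CHEK1 descend in every pair.

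The plot of single genes by library sets these values beside the conditions that contained gilteritinib, which share no library with Mito-Lipo and DMSO. Com minus Gilteritinib was 1.07 for CDKN1A and 0.65 for BTG2, against 1.20 and 1.54 for Mito-Lipo minus DMSO. It was -0.04 for RFC3, -0.12 for MCM6, -0.07 for CHEK1 and -0.20 for TOP2A, against -0.36, -0.36, -0.31 and -0.33. Gilteritinib was given at 20 nM in Com and 25 nM alone, so the values stand side by side only. When the difference between the 2 effects was itself tested with limma, 0 of the 18574 genes passed the adjusted and 541 the unadjusted threshold of 0.05. The 541 are a smaller share than an unadjusted threshold of 0.05 passes when nothing differs. This test had no replicate block, so the distance of replicate 1 enters its error.

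Genes of cholesterol and fatty acid synthesis were higher in Mito-Lipo replicates 2 and 3. Of 33 tested, 29 were higher between means (median 0.37), with 11 higher and 0 lower by the count rule and 26 and 0 with the block, and 28 rose in replicates 2 and 3 alone, against 3.08% of all genes. Without Mito-Lipo replicate 1 the median was 0.58. Within pairs the medians were -0.04, 0.56 and 0.63, and 19 genes were higher by at least 0.5 in both pair 2 and pair 3 against 1 in pair 1. For the same genes Com minus Gilteritinib had a median of -0.07. SREBP2 drives most of these genes when sterols are low.

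TM7SF2 (chromosome 11, 65111845 to 65116384), a sterol reductase, was the member with the smallest p, and its pairs were alike (0.76, 0.57 and 0.85). Its FPKM was 8.24, 8.11 and 9.26 in Mito-Lipo and 4.45, 5.14 and 4.68 in DMSO, and it rose in the blocked fit of protein-coding genes (0.73, SE 0.11 without the block, adjusted p = 0.0147 from limma with it). TM7SF2 overlaps VPS51 on the same strand, so fragments of the 2 genes may have been shared. MVK, mevalonate kinase, had 7.53, 8.91 and 8.1 against 6.73, 5.38 and 5.41 and rose in the blocked fit (adjusted p = 0.041 from limma). STARD4, a sterol carrier, had 14.8, 25.5 and 25.9 against 14.1, 12.2 and 12.6 and rose in replicates 2 and 3 (adjusted p = 0.0009 from limma). AACS, which makes acetoacetyl-CoA for this pathway from ketone bodies, had 10.4, 11.9 and 11 against 8.21, 6.78 and 6.69 and rose in the blocked fit (0.56, SE 0.10 without the block, adjusted p = 0.016 from limma with it).

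The early and regulatory steps of the pathway show the split between replicates most plainly, with the following genes chosen after their values were seen. HMGCS1, the enzyme ahead of HMG-CoA reductase, had FPKM of 32.2, 86.8 and 89.5 in Mito-Lipo and of 42.9, 30.9 and 31.9 in DMSO. Its pair differences were -0.40, 1.46 and 1.46, and it rose in replicates 2 and 3 (adjusted p = 0.000204 from limma). SQLE, squalene epoxidase, had 48, 133 and 139 against 52.9, 65.1 and 64.5. DHCR7, which makes cholesterol in the last step of one branch, was lower in both replicate 1 libraries (9.33 and 7.74) than in the other treated (34.3 and 36.4) and control libraries (15.9 and 16.2), and rose in the blocked fit (adjusted p = 0.0245 from limma).

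Glucose metabolism gave one of the steadiest single changes. PGD (chromosome 1, 10398592 to 10420144), an enzyme of the pentose phosphate pathway that makes NADPH, had FPKM of 127, 115 and 123 in Mito-Lipo and of 87.8, 91 and 90.2 in DMSO. It rose in the blocked fit of protein-coding genes (0.43, SE 0.06 without the block, adjusted p = 0.016 from limma with it), with pair differences of 0.53, 0.34 and 0.44. Of 32 genes of glycolysis and the pentose phosphate pathway, 24 were higher (median 0.12), with 7 higher and 0 lower by the count rule (13 and 0 with the block), and without DMSO replicate 1 the median was 0.024. PKM, pyruvate kinase, had 232, 240 and 254 against 201, 218 and 208 and rose in replicates 2 and 3 (adjusted p = 0.041 from limma). PFKFB4, which sets the level of an activator of glycolysis, had 3.18, 7.69 and 7.39 against 2.35, 3.07 and 3.23 and rose in the blocked fit (adjusted p = 0.0383 from limma). ALDOC, an aldolase chosen after its values were seen, had 4.1, 30.8 and 33.5 against 2.14, 6.62 and 6.11 and rose in that fit too (adjusted p = 0.027 from limma).

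Lysosome and autophagy genes were higher by a small amount, with medians of 0.20, 0.09 and 0.07 within pairs 1, 2 and 3. Of 40 tested, 31 were higher (median 0.11), 13 higher and 0 lower by the count rule, and 16 had no overlap, against 7.68% of all genes tested. CTSB, cathepsin B, had FPKM of 21.9, 26.1 and 25.7 in Mito-Lipo and of 16.7, 18.8 and 17.7 in DMSO and rose in the blocked fit (0.44, SE 0.10 without the block, adjusted p = 0.0381 from limma with it). CTSH, cathepsin H, had 3.48, 4.04 and 3.75 against 2.54, 2.72 and 2.48 and rose too (adjusted p = 0.0191 from limma). NPC1, the exporter of lysosomal cholesterol, had 13.6, 15.1 and 13.9 against 12.2, 11.5 and 10.9 and rose in replicates 2 and 3 (adjusted p = 0.0232 from limma).

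Immediate early genes were higher, with JUND as the exception. Of 22 tested, 21 were higher (median 0.31), with 6 higher and 1 lower by the count rule and 13 and 1 with the block. FOSB had FPKM of 2.68, 6.49 and 5.55 in Mito-Lipo and of 1.37, 2.39 and 2.92 in DMSO and rose in the blocked fit (adjusted p = 0.0147 from limma). FOS, chosen after its values were seen, had 32, 45.4 and 48.1 against 20.8, 32.2 and 33.3, with pair differences of 0.59, 0.48 and 0.52, and rose in the blocked fit (adjusted p = 0.008 from limma). JUND, an AP-1 subunit, had 93.1, 52.5 and 47.3 against 85, 106 and 133, with pair differences of 0.13, -1.01 and -1.47, and fell in replicates 2 and 3 (adjusted p = 0.00643 from limma). Its FPKM was 68.5, 36.5 and 43.6 in gilteritinib alone and 69, 78.1 and 88.4 in Com. For this list and the next, without DMSO replicate 1 but with Mito-Lipo replicate 1 kept, the medians were 0.13 and -0.03.

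Among genes listed from general knowledge as raised by ERK and FLT3 signaling, more passed the count rule with the replicate block than without it. Of 14 ERK feedback genes, 12 were higher (median 0.20, pair medians 0.21, 0.24 and 0.30), with 1 higher by the count rule and 6 with the block. DUSP5, a phosphatase of ERK, had FPKM of 2.42, 6.07 and 6.17 in Mito-Lipo and of 2.14, 3.06 and 2.89 in DMSO and rose in the blocked fit (adjusted p = 0.0374 from limma). In the FLT3 and STAT5 output list, 13 of 18 were higher (median 0.17), with 1 higher by the count rule and 7 with the block, and without DMSO replicate 1 the median was 0.051. CISH, a STAT5 target that restrains cytokine signals, had 11.5, 17.1 and 17.4 against 7.35, 10.9 and 10.5, with pair differences of 0.58, 0.61 and 0.67, and rose in the blocked fit (adjusted p = 0.0294 from limma). SOCS3 had 4.21, 7.64 and 8.13 against 2.94, 4.49 and 5.29 and rose likewise (adjusted p = 0.0168 from limma). In gilteritinib alone the mean FPKM was 2.53 for DUSP5, 10.7 for CISH and 4.54 for SOCS3, against 2.70, 9.59 and 4.24 in DMSO. Whether these genes follow FLT3 signaling in these cells was not tested. FLT3 itself (chromosome 13, 28003274 to 28100592) had 132, 171 and 170 against 138, 165 and 169, a difference of -0.00 (SE 0.11, adjusted p = 0.999 from limma) whose sign changed with the setting.

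The PI3K and AKT genes showed little difference between means. Of 28 tested, 15 were higher and 13 lower (median 0.02), with 2 higher and 0 lower by the count rule (3 and 2 with the block), and 0 passed an adjusted p in replicates 2 and 3. AKT1 had FPKM of 17.2, 18.8 and 17.9 in Mito-Lipo and of 18.5, 19 and 18.7 in DMSO (-0.06, SE 0.09, adjusted p = 0.942 from limma). AKT2 had 31.3, 31.2 and 28 against 26.9, 28.3 and 28.3 (0.11, SE 0.07, adjusted p = 0.773 from limma). The catalytic subunits PIK3CA, PIK3CB, PIK3CD and PIK3CG differed by -0.01, 0.16, 0.06 and -0.15, with SE of 0.12, 0.07, 0.12 and 0.10, and the groups did not overlap for PIK3CB only, with 31.4, 32.8 and 31.8 against 28.5, 29.2 and 27.8. The signs of PIK3CA and PIK3CD changed in replicates 2 and 3 alone, to 0.08 and -0.08.

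Apoptosis regulators moved little as a group, and BCL2L11 was the member with the clearest difference. BCL2L11, which encodes the proapoptotic BIM, had FPKM of 18.1, 23.2 and 24.1 in Mito-Lipo and of 13.2, 17.1 and 15.9 in DMSO, higher in every pair (0.42, 0.42 and 0.58), and rose in the blocked fit of protein-coding genes (adjusted p = 0.027 from limma). MCL1, an antiapoptotic member, had 55.9, 74 and 72.2 against 51.1, 56.3 and 58.8 and rose in replicates 2 and 3 (adjusted p = 0.0118 from limma). Of the 25 genes of the BCL2 family and caspases, 14 were higher, with 2 higher and 0 lower by the count rule and a median of 0.08.

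Myeloid surface and effector genes were higher on a background that itself differed between replicates. Of 27 genes of monocyte and granulocyte differentiation, 20 were higher (median 0.18), with 5 higher and 0 lower by the count rule (10 and 2 with the block), and the pair medians were 0.37, 0.01 and 0.10. Without Mito-Lipo replicate 1 the median of this list was 0.012. CSF1R, the receptor of macrophage colony-stimulating factor, had FPKM of 18.3, 40.6 and 41.1 in Mito-Lipo and of 11.4, 22.4 and 20.9 in DMSO and rose in the blocked fit (0.80, SE 0.34 without the block and 0.12 with it, adjusted p = 0.016 from limma). FCGR2A, an Fc receptor, had 11.1, 16 and 17.5 against 8.39, 10.5 and 11 and rose too (adjusted p = 0.0245 from limma). ITGAX, which encodes CD11c, had 1.15, 10.4 and 7.92 against 0.631, 1.54 and 1.64 and rose in that fit (adjusted p = 0.0401 from limma), with the lowest treated library below 2 of the 3 controls. CEBPD, a transcription factor of the same list chosen after its values were seen, had 23.6, 4.41 and 4.94 against 16.7, 13 and 18.3, higher in pair 1 (0.48) and lower in pairs 2 and 3 (-1.38 and -1.70).

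Inflammatory genes had medians of 0.26, 0.28 and 0.33 within pairs 1, 2 and 3. Of 20 NF-kB and cytokine genes, 19 were higher (median 0.26), with 6 higher and 0 lower by the count rule and 12 and 0 with the block. IL1B had FPKM of 3.02, 11.9 and 11.1 in Mito-Lipo and of 2.08, 3.45 and 3.79 in DMSO and rose in the blocked fit (adjusted p = 0.0383 from limma). RELB, an NF-kB subunit, had 5.1, 7.66 and 6.49 against 3.32, 4.37 and 4.3 and rose in replicates 2 and 3 (adjusted p = 0.0174 from limma). CD83 had 9.26, 14.1 and 14.2 against 8.3, 8.16 and 7.89 and rose in replicates 2 and 3 as well (adjusted p = 0.00109 from limma).

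Of 23 interferon-stimulated genes, 21 were higher (median 0.29, pair medians 0.20, 0.24 and 0.28), with 6 higher and 0 lower by the count rule and 9 and 0 with the block. Without DMSO replicate 1 the median was 0.16. IFI35 had FPKM of 6.38, 7.04 and 6.68 in Mito-Lipo and of 3.78, 5.5 and 5 in DMSO and rose in the blocked fit (adjusted p = 0.0387 from limma). STAT2, which carries the interferon signal to the nucleus, had 16.2, 15.9 and 15.4 against 11.1, 11.4 and 11.9 and rose in replicates 2 and 3 (adjusted p = 0.00933 from limma). MX2 stayed low, at 1.63 to 1.98 against 1.16 to 1.28. In the antigen presentation list, 9 of 11 were higher (median 0.17, 1 higher by the count rule and 3 with the block), and CIITA, the master regulator of MHC class II genes, rose in the blocked fit with 4.62, 6.15 and 4.9 against 3.08, 3.79 and 3.94 (adjusted p = 0.0421 from limma).

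Across the whole table, the genes with the smallest p in either direction repeat these groups and add some outside them. They were taken as the 12 genes in each direction with the smallest p, and the 6 with the smallest p under the block, among genes with a mean FPKM of at least 5 in the higher condition, no overlap and the same sign in all pairs, which 729 genes met upward and 918 downward. CD82 (chromosome 11, 44564427 to 44620363), a tetraspanin of the cell surface, had the smallest p of all these, with FPKM of 17.1, 19.7 and 21.1 in Mito-Lipo and of 11.3, 11.7 and 11.7 in DMSO, and rose in the blocked fit of protein-coding genes (0.69, SE 0.09 without the block, adjusted p = 0.0147 from limma with it). The SD of its DMSO libraries, 0.24, was below counting error. IL4I1, a secreted amino acid oxidase, had 5.81, 15.6 and 13.1 against 2.7, 3.88 and 3.59, a 3.39-fold higher mean, and rose in that fit (adjusted p = 0.016 from limma), but it overlaps NUP62 on the same strand. LRG1, a secreted glycoprotein, had 20.5, 24.6 and 27.6 against 13.5, 16.1 and 17.5 and rose (adjusted p = 0.016 from limma). MKNK1, a kinase that phosphorylates eIF4E, had 32.9, 30.3 and 28.6 against 20.7, 22.2 and 22.5 and rose (adjusted p = 0.0306 from limma).

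PLOD1, a collagen lysyl hydroxylase, had FPKM of 21.5, 20.3 and 22.5 in Mito-Lipo and of 15.3, 16.8 and 17 in DMSO and rose in the blocked fit (adjusted p = 0.0168 from limma). LCP2, the adaptor SLP-76, had 80.8, 99.4 and 106 against 62.3, 78.5 and 76.7 and rose likewise (adjusted p = 0.0188 from limma). MIR593 (12.9, 13.9 and 13.3 against 8.6, 6.91 and 7.28) and RNU6-1322P (6.49, 5.89 and 4.21 against 2.85, 2.84 and 1.98) were the noncoding genes among the 12, with adjusted p of 0.0861 and 0.0895 from limma under the block. They rest on as few as 24 and 7 fragments in a library, and each lies within another gene, SND1 on the same strand and SRPK2 on the opposite one, so their values cannot be told apart from fragments of those transcripts.

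The leading genes that were lower included RFC3, WDHD1, PRIM2, BRCA1 and RRM1, described above, and others that carried no list label. CEP55, which acts in the last step of cell division, had FPKM of 12.3, 13.1 and 13.4 in Mito-Lipo and of 18.3, 16.6 and 17.8 in DMSO and fell in the blocked fit (-0.42, SE 0.09 without the block, adjusted p = 0.0359 from limma with it). ESCO2, the acetyltransferase that sets sister chromatid cohesion in S phase, had 26.5, 25.9 and 26.9 against 33.5, 33.2 and 33.2 and fell too (adjusted p = 0.0383 from limma), although its DMSO libraries differed by less than counting error. CENPU, a kinetochore protein, had 28.8, 34.6 and 35.5 against 36.7, 44 and 43.4 and fell (adjusted p = 0.027 from limma). NREP and TSEN15, the latter a subunit of the tRNA splicing endonuclease, fell by 0.38 and 0.26 on the log2 scale (adjusted p = 0.0168 and 0.0329 from limma).

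Gene classes across the table showed that the direction of the calls depended on the level of expression. Protein-coding genes were split into 5 equal bins of mean FPKM over the 6 libraries compared. The share lower by the count rule went from 0.618% in the lowest bin to 9.33% in the highest, and the share higher from 6.47% to 3.76%. With the block these were 2.57% to 17.3% for the share lower and 11.2% to 8.61% for the share higher. The median difference went from 0.06 to -0.04, and within pairs the lowest bin had medians of 0.09, 0.08 and -0.02. Across protein-coding genes the difference had a Spearman rho of -0.23 with mean FPKM, with -0.20, -0.26 and -0.03 in pairs 1, 2 and 3, which is a description over 10506 genes of the same 6 libraries. Low FPKM carry more counting error, and the part of this in the pattern was not tested.

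**Figure D4:**
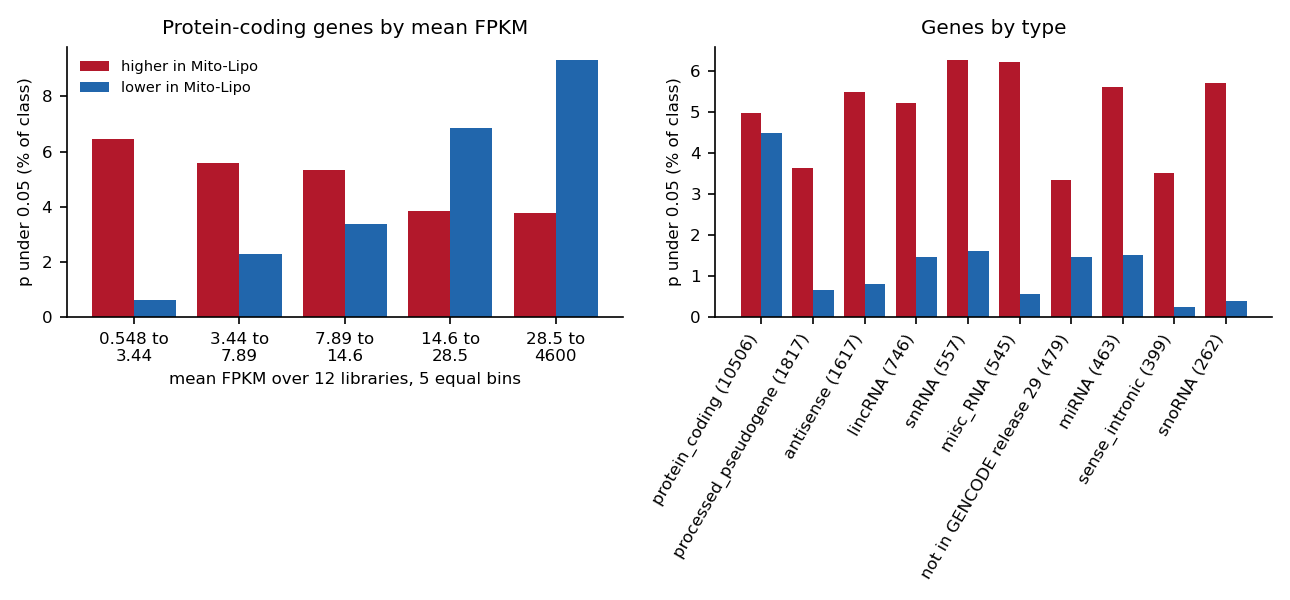
Share of genes with an unadjusted p under 0.05, in % of the class, higher (red) and lower (blue) in Mito-Lipo, for protein-coding genes in 5 equal bins of mean FPKM (left) and for the 10 largest gene types (right, number of genes in brackets). The mean FPKM is that of the 6 Mito-Lipo and DMSO libraries, although the axis label reads 12 libraries. Lower calls grow from 0.618% to 9.33% with mean FPKM, and they are at 4.49% of protein-coding genes against at most 1.62% of the other types shown.

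As the plot of classes shows, noncoding types had more calls upward than downward. Of 1617 antisense genes, 5.5% were higher and 0.804% lower, of 746 lincRNA genes 5.23% and 1.47%, and of 463 miRNA genes 5.62% and 1.51%, against 5% and 4.49% of protein-coding genes. Their medians were highest in pair 2, at 0.23 for antisense, 0.15 for lincRNA and 0.39 for miRNA genes, while in pair 3 they were -0.04, -0.03 and -0.01. Mito-Lipo replicate 2 was the library of lowest depth, and the part of depth in these medians was not tested. Calls also varied with length. The share of lower calls fell from 7.23% in the bin of shortest exonic length to 2.86% in the longest, and by gene span from 6.23% to 3.52%, while the median difference stayed between -0.03 and 0.02 in every bin. Spearman's rho of the difference with gene span was 0.03 over all, and -0.11, 0.09 and 0.07 within pairs, and with exonic length it was 0.10 over all, and -0.0062, 0.16 and 0.05 within pairs.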

How the data were processed

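RNA-seq of MV4-11 cells gave 12 libraries. The authors deposited 1 table of FPKM per gene, the only unit used, made from mapped fragments by a sequencing company. The submitters' processing notes name Bowtie 0.12.9, Cufflinks 2.1.1, HTSeq, DESeq2 and the build mm10 without roles, whereas the identifiers are human Ensembl genes, so the build of the files is not settled and strand and multi-mapping rules are not given in the sources used here. The table held 0 columns outside the 12 samples and no comparison of the authors. Of 43876 identifiers, 40169 were matched to GENCODE release 29 (GRCh38) for positions, types and exonic lengths.

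From the deposited FPKM, log2(FPKM + 1) was tested with limma 3.58.1 in R 4.3.3 over all 12 libraries, with 1 mean per condition, a mean-variance trend, two-sided tests and Benjamini-Hochberg adjustment over the genes that reached an FPKM of 1 in 3 or more libraries. The method was tested on simulated data. An exact permutation test of 3 against 3 libraries cannot go below 0.1, so single genes were tested by the fit across all genes. Gene lists (30) got no test and are described by counts and medians. Depth was the mode of the values that 1 fragment gives with the exonic length, and 69.8% to 71.2% of low values were then whole fragments within 0.05. Counting error exceeded the SD of a condition in 13 of 113 named genes, among them CD82, ESCO2, RRM1, TDP1, IFI35 and CD83. Of the 113 named genes, 48 overlap another annotated gene.

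Replicate numbers come from the sample labels. In deviations from the condition means, the 18 pairs of same-numbered libraries correlated at 0.165 to 0.657 (Mito-Lipo with DMSO 0.165 to 0.491). Libraries of different numbers were not correlated, and replicate 1 stood apart in every condition. Whether numbers 2 and 3 match libraries across conditions was therefore not tested. The replicate block was an alternative fit. The lists, tests and alternatives were chosen with earlier results of these data known, and the lists come from general knowledge. Genes named were those the study names, TOP2A and TOP2B, the 3 of each list with the smallest p, and the leading genes by the rule stated in the text, and others are marked as chosen after their values were seen. Some items these rules name are not reported here. The 18 alternatives were another pseudocount, filters, scalings, no trend, the block, a batch term, protein-coding genes, 6 libraries, replicates 2 and 3, and each library left out. Leaving 1 library out kept its same-numbered partner and used no block.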

Additional observations from a re-analysis of the deposited data

How the results depend on the processing

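At an adjusted p under 0.05 from limma, the count of 0 genes became 3 with no filter on low values, 34 with a batch term for replicate 1, 279 with protein-coding genes and the replicate block, 1190 with replicates 2 and 3, and 0 to 36 with 1 library left out (36 without Mito-Lipo replicate 1). At an unadjusted p under 0.05, 1467 became 922 at a mean FPKM of at least 5, 2993 with no filter, 2332 with protein-coding genes and the replicate block, 3084 with the batch term, 2954 with the replicate block, 3977 with replicates 2 and 3, and 762 to 1995 with 1 library left out (762 without Mito-Lipo replicate 2). Of the calls, 62.7% were higher, against 48.3% with quantile normalization (707 higher, 757 lower) and 55.5% with median-ratio scaling, while the median of all genes was 0.03, -0.01 and 0.01. Of 540 list medians under the 18 alternatives, 475 moved by less than the SD of the 3 pair medians, 62 moved by more, and 3 changed sign where the median itself was larger than that SD. No trend, the block, the batch term and the 6 libraries leave every median as it is. So does the restriction to protein-coding genes in lists of such genes, and these cases are part of the 475. That SD is also wide where the pairs disagree. For p53 targets it is 0.26, so a median of 0.0079 without Mito-Lipo replicate 1, against 0.21, counts among the 475. Quantile normalization gave -0.0076 for p53 regulators, 0.030 for the BCL2 family, 0.13 for ERK feedback, 0.21 for interferon-stimulated genes and 0.096 for antigen presentation, and median-ratio scaling gave -0.16 for G1 and S phase regulators. Replicates 2 and 3 gave -0.092 for G1 and S phase regulators, -0.18 for CDK inhibitors, -0.17 for dNTP supply, 0.28 for ERK feedback, 0.25 for interferon-stimulated genes and 0.32 for NF-kB. A mean FPKM of at least 5 gave -0.032 for the BCL2 family, the reverse of its sign, 0.10 for interferon-stimulated genes and 0.084 for antigen presentation. A pseudocount of 0.1 gave 0.41 for immediate early genes, 0.25 for ERK feedback, 0.36 for interferon-stimulated genes and 0.35 for NF-kB, and no filter gave 0.17 for interferon-stimulated genes, 0.0099 for antigen presentation and 0.20 for NF-kB. With 1 library left out, medians ranged from -0.16 (without DMSO 3) to -0.069 (without DMSO 1) for topoisomerases, -0.26 to -0.21 for replication, -0.18 to -0.099 for G1 and S phase regulators, -0.34 to -0.063 (without Mito-Lipo 1) for CDK inhibitors, -0.17 to -0.075 (without DMSO 3) for dNTP supply, 0.031 (without Mito-Lipo 3) to 0.074 for the BCL2 family, 0.13 (without DMSO 1) to 0.49 (without Mito-Lipo 1) for immediate early genes, and -0.032 (without DMSO 1) to 0.44 (without Mito-Lipo 1) for ERK feedback. They also ranged from 0.024 (without DMSO 1) to 0.20 for glycolysis, -0.067 (without DMSO 1) to 0.22 (without Mito-Lipo 1) for the ATF4 list, 0.16 (without DMSO 1) to 0.30 for interferon-stimulated genes, 0.086 (without DMSO 1) to 0.26 for antigen presentation, 0.24 to 0.32 for NF-kB, -0.0098 (without Mito-Lipo 1) to 0.16 for efflux transporters, and -0.16 to 0.019 (without DMSO 3) for mitochondrially encoded genes.

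Of 2004 gene values, 1811 kept their direction and side of the unadjusted threshold, 107 lost and 74 gained it, and 12 changed sign. FLT3 was 0.067 with quantile normalization, 0.032 with replicates 2 and 3, and -0.091 to 0.12 with 1 library left out. PIK3CA was 0.081 and PIK3CD -0.082 with replicates 2 and 3, and with 1 library left out PIK3CA ranged from -0.042 to 0.046 and PIK3CD from -0.079 to 0.13. With 1 library left out ABCC4 ranged from -0.14 to 0.020 (without DMSO 1) and MT-TS1 from -0.71 to 0.11 (without DMSO 3). The cause of these changes was not tested. Values within 1 pair or between 2 libraries of a condition rest on too few libraries for a test of their own, and in genes with few fragments counting error limits them.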

Other observations

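Mitochondrial and ribosomal genes moved little. Of 73 nuclear genes of the respiratory chain, 58 were lower (median -0.08), with 0 higher and 7 lower by the count rule. COX5A, a subunit of complex IV, had FPKM of 72.2, 58 and 59.8 in Mito-Lipo and of 75.3, 88.2 and 84.9 in DMSO and fell in replicates 2 and 3 (adjusted p = 0.00321 from limma), and CYC1, of complex III, had 109, 88.4 and 93.1 against 111, 126 and 125 and fell there too (adjusted p = 0.00243 from limma). The 35 mitochondrially encoded genes had a median of -0.11 with 0 genes called in either direction. Of 54 MYC and ribosome biogenesis genes, 43 were lower (median -0.08), with 0 higher and 4 lower by the count rule (1 and 5 with the block). Of 82 cytosolic ribosomal protein genes, 51 were higher (median 0.02), with 0 higher and 2 lower (1 and 2 with the block). RPL13, 1 of the latter, had 506, 271 and 278 against 443, 545 and 534, with pair differences of 0.19, -1.01 and -0.94. Its FPKM was 495, 278 and 306 in gilteritinib alone and 534, 445 and 520 in Com.

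Stress genes of the ATF4 and unfolded protein response were higher and lower in near equal number, 18 and 15 of 33 (median 0.03), with 2 higher by the count rule and 9 higher and 3 lower with the block. HSPA5, the chaperone BiP, had FPKM of 140, 139 and 151 in Mito-Lipo and of 137, 120 and 119 in DMSO and rose in replicates 2 and 3 (adjusted p = 0.0249 from limma). Of 7 genes of the HOXA cluster with MEIS1 and PBX3, MEIS1, a cofactor of HOXA9 in leukemia, was the 1 higher by the count rule (42, 43.3 and 43.3 against 35.8, 38.6 and 38.8) and rose in replicates 2 and 3 (adjusted p = 0.0301 from limma). The 6 drug efflux transporters tested had a median of 0.05 with 0 called (1 higher with the block), and 24 genes that regulate p53 had a median of 0.02 with 0 higher and 2 lower by the count rule and 1 and 4 with the block.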
